A study of Homo sapiens with 47 samples.

Results

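10 genes of the actin and keratin cytoskeleton were examined by name in a table of UMI counts from single HEK293 cells: ACTB, ACTG1, PFN1, CFL1, TMSB4X, TMSB10, MSN, KRT18, KRT8 and VIM. All 10 have a row among the 18651 gene rows, and together they held 25593 of 2919198 endogenous UMIs, or 0.877%. That share ran from 0.663% in cell 53 to 1.18% in cell 3. HEK293, a cell line derived from human embryonic kidney, carries adenovirus DNA. The labels describe 47 single cells of that line, grown in DMEM with fetal calf serum, with no treatment, altered genotype or other group, so each gene is described over the cells. Cells were lysed in a microfluidic circuit with synthetic ERCC spike-in RNAs, and each cDNA was tagged where the transcript's 5′ end lies with a random barcode, the unique molecular identifier (UMI). No separate cultures are named, so the spread given here is that between these cells, and every SD has n = 47.

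A cell had 29325 to 138647 endogenous UMIs and 2573 to 4717 spike-in UMIs. Whether a chamber held more than 1 cell was not given in the sources used here. Levels below are UMIs per 10000 endogenous UMIs of the same cell, and no length correction was made because a UMI tags the 5′ end of a molecule. Of 15 kidney epithelium markers, 7 had a row, and they held 79 UMIs in all. LHX1, a kidney developmental factor, had 33 of these UMIs and LRP2, which encodes the endocytic receptor megalin, had 26.

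Actin exists as free monomers and as filaments that grow at one end and are cut and shortened at the other. Profilin hands monomers to growing filaments, β-thymosins hold monomers in reserve, and cofilin severs old filaments. Keratins 8 and 18 pair as a type II and a type I protein to form the filaments of simple epithelia, and vimentin forms those of mesenchymal cells and of many cultured lines. Moesin ties actin filaments to the plasma membrane.

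The actin genes had the highest levels and MSN the lowest. ACTG1, which encodes γ-actin, had 27.5 ± 5.96 UMIs per 10000, and ACTB, which encodes β-actin, had 21.4 ± 4.59. PFN1 (profilin 1) had 13.02 ± 2.20, TMSB10 (thymosin β10) 12.5 ± 2.88 and CFL1 (cofilin 1) 9.23 ± 1.65. VIM (vimentin) had 2.54 ± 1.33. The remaining genes were rare: KRT18 had 0.861 ± 0.809, KRT8 0.460 ± 0.454, TMSB4X (thymosin β4) 0.352 ± 0.451 and MSN (moesin) 0.116 ± 0.199. In UMIs not scaled for depth, the means ran from 169 per cell for ACTG1 to 0.745 for MSN.

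Neighbours in that order were compared cell by cell. CFL1 exceeded VIM in 47 of 47 cells, ACTB exceeded PFN1 in 45, VIM exceeded KRT18 in 44 and TMSB10 exceeded CFL1 in 41. ACTG1 exceeded ACTB in 36 cells and fell short of it in 11. PFN1 and TMSB10 were close, with PFN1 higher in 30 cells and TMSB10 in 17. KRT18 exceeded KRT8 in 30 cells with 6 ties, and KRT8 exceeded TMSB4X in 25 cells with 6 ties. Across cells the ranges of all neighbours in the order overlap, also those of CFL1, whose lowest level was 5.23, and VIM, whose highest was 7.09.

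**Figure D1:**
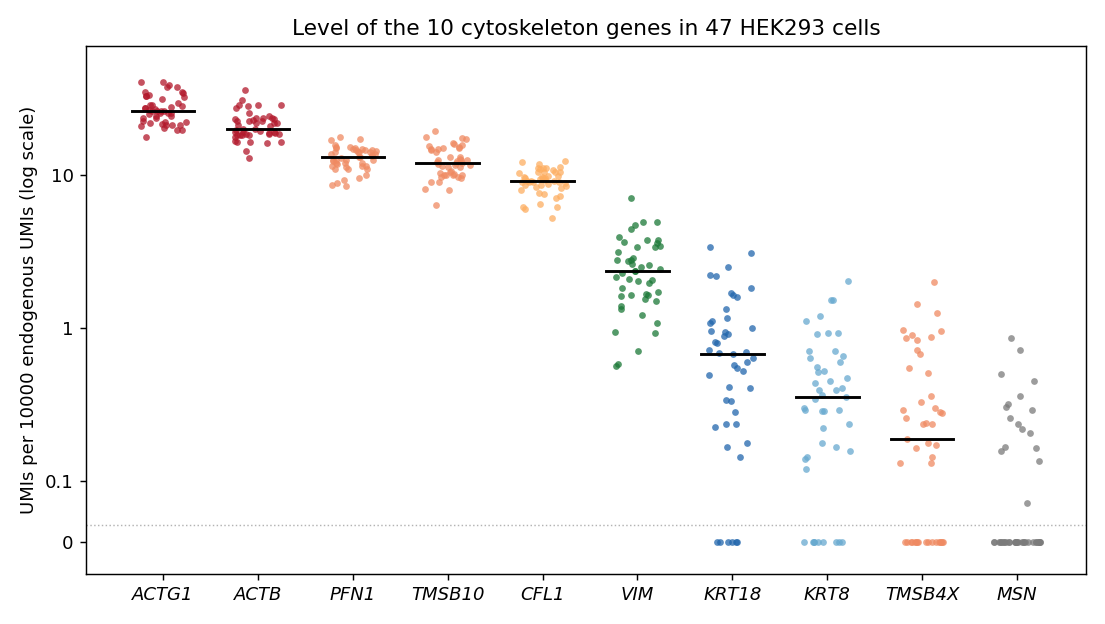
Each point is 1 of 47 cells and gives the level of a gene in UMIs per 10000 endogenous UMIs on a log axis, with cells at 0 drawn below the dotted line and the median as a black bar. The 5 genes on the left were detected in every cell, as was VIM, while KRT18, KRT8, TMSB4X and MSN were at 0 in 6, 9, 17 and 30 cells.

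How unevenly a gene's UMIs fell over cells was expressed as a dispersion index. It compares the observed counts with those that the endogenous total of each cell predicts, as a chi-square value per degree of freedom. Counting error alone gives 1, and the 52 spike-ins with at least 20 UMIs had a median of 2.11 and a highest value of 3.97. All 10 genes exceeded counting error (chi-square test, Benjamini-Hochberg adjusted over 9088 genes), as did 88.0% of all genes tested, so that count does not set these genes apart. Against the spread of the spike-ins at the same abundance, 5 of the 10 passed, namely ACTB, ACTG1, TMSB10, KRT18 and VIM, where 5.40% of all genes did. On simulated counts the plain chi-square tail called too many genes with few UMIs. With a tail matched to overdispersed counts, added afterwards, ACTB, ACTG1, TMSB10 and VIM passed, 4 of 10 against 3.06% of all genes.

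Abundance has to be set beside these counts. Of the 185 genes with a mean of at least 50 UMIs per cell, 66.5% passed with the matched tail, whereas 7.90% of the 1645 genes with a mean from 5 to 50 and 0.486% of the 4321 genes with a mean from 1 to 5 did. ACTB, ACTG1, PFN1, CFL1 and TMSB10 belong to the most abundant class, VIM to the next, KRT18, KRT8 and TMSB4X to the third and MSN to the rarest. With the plain tail 69.7% of the most abundant class passed. Most genes of that class thus passed with either tail, so passing does not in itself set ACTB, ACTG1 and TMSB10 apart. The median index of the 10 genes was 3.54, and that of all genes tested was 2.00, a comparison not matched for abundance. By class the median was 3.74 at a mean of at least 50, 2.37 from 5 to 50 and 1.98 from 1 to 5. ACTB, ACTG1, KRT18 and VIM had an index above that of every spike-in, a rule met by 3.21% of all genes. KRT18, at 4.07, was just past the highest spike-in, while TMSB10, at 3.73, was below it.

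**Figure D2:**
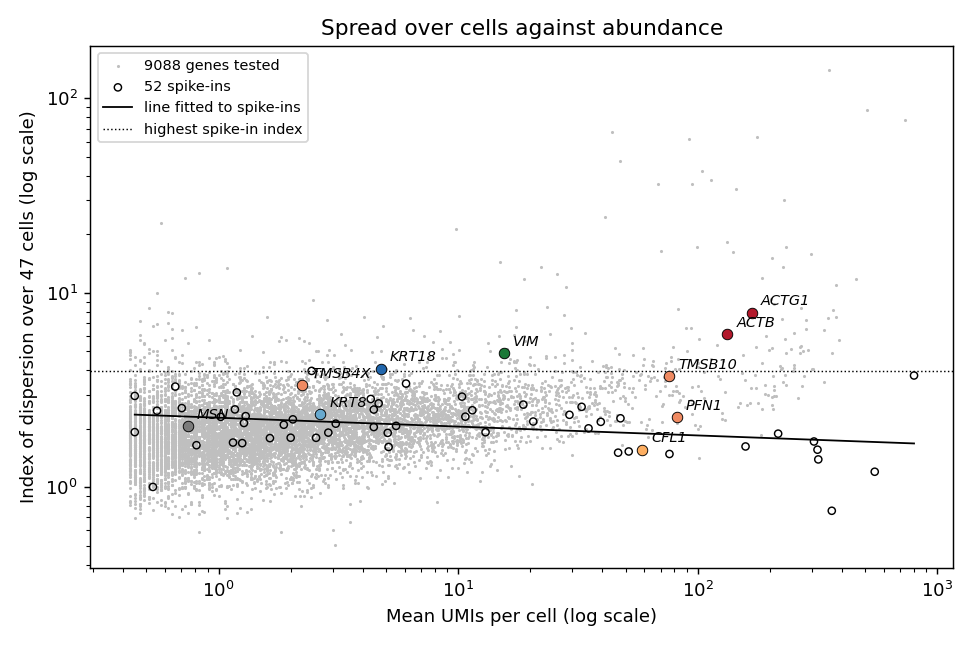
The index of dispersion over 47 cells is plotted against the mean UMIs per cell, both on log axes, for all genes tested (grey), the spike-ins (open circles, with their fitted line) and the 10 cytoskeleton genes (coloured and named). ACTG1 and ACTB lie well above the spike-in line, while CFL1, at 1.56, lies under it.

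The actin genes encode proteins that differ at a few residues near the amino terminus, and their coding sequences differ at 99 of 1128 bases, an identity of 91.2%. The first 60 coding bases are shown because they show how alike the genes are and where a read could tell them apart. Capitals mark the 10 positions at which they differ, and the sequences are from GENCODE 29 transcripts.
ACTB: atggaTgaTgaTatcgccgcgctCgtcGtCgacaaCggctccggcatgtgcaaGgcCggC
ACTG1: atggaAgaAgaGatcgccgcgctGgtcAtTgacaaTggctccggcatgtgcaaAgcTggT
The longest identical run between the coding sequences is 59 bases. The tags of this assay sit at the 5′ end of the transcript, upstream of the coding sequence in full-length copies. None of the 151 words of 50 bases in the first 200 bases of either transcript occurred in a GENCODE transcript of another gene.

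ACTB ran from 13.05 UMIs per 10000 in cell 16 to 36.3 in cell 51, a 2.78-fold range around a median of 20.2. Its counts were 87 and 178 UMIs in those cells. Its index of 6.13 passed against spike-in noise (chi-square test, Benjamini-Hochberg adjusted p = 1.65e-11), and it passed again when any single cell was left out, the lowest index being 5.18 without cell 51. Among the 185 most abundant genes, 37 had a higher index.

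ACTG1 ran from 17.9 per 10000 in cell 22 to 40.8 in cell 3 (median 26.5). It had an index of 7.91 (chi-square test, Benjamini-Hochberg adjusted p = 4.95e-19), and 27 of the 185 most abundant genes had a higher one. Leaving out single cells kept the index between 7.30 and 8.08. The upper cells after cell 3 were cell 73 at 40.7 and cell 16 at 38.8, so ACTG1 was high in the cell that had the least ACTB.

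The isoform ratio therefore varied. ACTB made up 44.05% of the ACTB and ACTG1 UMIs summed over cells (exact binomial interval 43.2% to 44.9%, counting error only), with 43.9% ± 6.51 over cells. It ranged from 25.1% in cell 16 (87 ACTB and 259 ACTG1 UMIs, interval 20.7% to 30.1%) to 56.5% in cell 22 (122 and 94 UMIs, interval 49.6% to 63.2%). In 17 of 47 cells the interval left out the summed share, 11 above it and 6 below. An index of the same kind, computed on the share within the pair, was 5.26, and it was 4.23 without cell 16. Pairs of spike-ins with at least 1000 UMIs, of which there were 120, had pair indices from 0.864 to 2.95. Among all 1326 pairs of spike-ins the highest was 4.25, which is above the value without cell 16. Pairs of other abundant genes were not set beside the actin pair. A pair index does not depend on the total used for scaling.

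**Figure D3:**
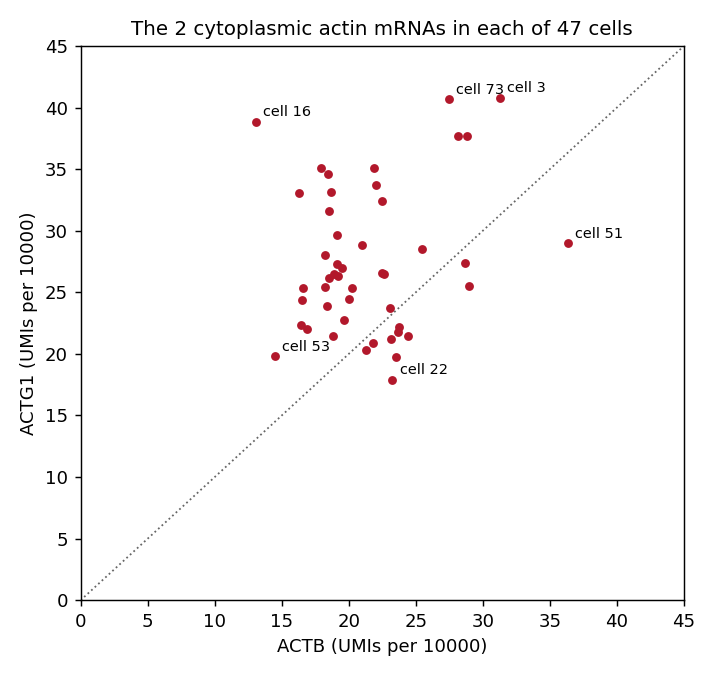
Each point is 1 cell, with its ACTB level on the x axis and its ACTG1 level on the y axis, both in UMIs per 10000, and the dotted line marks equal levels. Most cells lie above the line, the 11 cells under it have more ACTB than ACTG1, and cell 16 is the farthest from it.

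A molecule estimate can be had from the spike-ins, of which 20000 molecules were added per cell and 12.9% to 23.6% were recovered. If endogenous mRNA is counted with the same efficiency, a cell held a median of 907 ACTG1 molecules (429 to 1572) and 712 ACTB molecules (330 to 1382). The medians were 412 for TMSB10, 406 for PFN1, 327 for CFL1 and 80.3 for VIM. They were 22.9 for KRT18, 11.96 for KRT8 and 6.43 for TMSB4X.

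Serum response factor binds a motif called the CArG box and is known to drive actin genes. The bases upstream of the ACTG1 start are shown because they hold such a box, given in capitals (RefSeq, GRCh38.p14, chr17:81512800-81513049, minus strand, written 5′ to 3′ on the gene's strand).
ACTG1 upstream: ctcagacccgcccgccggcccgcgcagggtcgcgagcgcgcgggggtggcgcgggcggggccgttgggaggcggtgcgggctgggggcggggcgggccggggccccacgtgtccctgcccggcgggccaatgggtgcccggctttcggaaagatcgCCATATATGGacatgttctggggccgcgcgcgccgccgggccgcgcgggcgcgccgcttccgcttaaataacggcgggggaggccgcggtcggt
The box starts 94 bases before the annotated start. Upstream windows of 250 bases were at hand for 8 of the 10 genes, all but ACTB and KRT18, and ACTG1 was the only 1 of the 8 with a CArG box, on either strand. Of 35116 windows of the same length, 1.16% had one. The motif GGGCGG, searched on both strands, was in the windows of 7 of the 8 genes and in 42.6% of all windows. The first count is by gene, and MSN had more than 1 window, so the shares are not alike. For VIM and for a window of MSN, bases past the annotated start were not found in a GENCODE transcript of the gene. A match of letters is a description and not a binding site.

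PFN1 and CFL1, whose products feed and sever filaments, had lower indices than the actin genes, a difference that was not tested. PFN1 ran from 8.56 per 10000 in cell 52 to 17.7 in cell 40 (median 13.1), and its index was 2.30 (chi-square test against spike-in noise, Benjamini-Hochberg adjusted p = 0.707). CFL1 ran from 5.23 in cell 10 to 12.3 in cell 87 (median 9.23), and its index was 1.56 (Benjamini-Hochberg adjusted p = 1, the same chi-square test). Of the 185 most abundant genes, only RPL28, a ribosomal protein gene, had a lower index than CFL1, and 18 had a lower one than PFN1. RPL28 is no member of the group and is named because it was the single gene below CFL1.

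Both values rest on scaling to endogenous UMIs. With spike-in UMIs as the totals, which leaves in the differences in mRNA content between cells, the index was 10.8 for PFN1 and 6.84 for CFL1, and both passed (chi-square test, Benjamini-Hochberg adjusted p = 4.44e-31 and 6.02e-14). With totals scaled by TMM the index of PFN1 was 3.22 and passed (adjusted p = 0.0289, chi-square test). PFN1, CFL1, TMSB10 and TMSB4X together had 0.725 UMIs per actin UMI, from 0.504 in cell 15 to 0.989 in cell 43 (median 0.735).

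TMSB10 was among the abundant genes and TMSB4X among the rare ones. Their short coding sequences, 135 bases each, differ at 37 bases, an identity of 72.6%, with no identical run over 10 bases. They are shown whole, from GENCODE 29 transcripts and with the differences in capitals, to show how far these paralogs differ.
TMSB4X: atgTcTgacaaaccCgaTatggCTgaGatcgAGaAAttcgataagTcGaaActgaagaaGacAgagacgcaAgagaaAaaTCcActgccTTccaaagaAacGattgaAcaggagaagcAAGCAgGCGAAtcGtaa
TMSB10: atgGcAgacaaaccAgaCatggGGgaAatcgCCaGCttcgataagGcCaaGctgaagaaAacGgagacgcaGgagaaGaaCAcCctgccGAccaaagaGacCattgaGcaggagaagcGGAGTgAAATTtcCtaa

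TMSB10 was detected in every cell, from 6.39 per 10000 in cell 15 to 19.4 in cell 23 (median 12.02). Its index of 3.73 passed against spike-in noise (chi-square test, Benjamini-Hochberg adjusted p = 0.00258, and 0.00506 with the matched tail), also with each cell left out in turn. It was nevertheless ordinary for its abundance, since 96 of the 185 most abundant genes had a higher index. TMSB10 did not pass in the 17 cells with label numbers above 48 taken alone (index 3.16, adjusted p = 0.440, chi-square test).

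TMSB4X had 105 UMIs in all, 34.1-fold fewer than the 3579 of TMSB10. It made up 2.85% of the thymosin pair (exact binomial interval 2.34% to 3.44%, counting error only), and TMSB10 was higher in 47 of 47 cells. The highest share was 16.4% in cell 27 (12 and 61 UMIs, interval 8.79% to 26.95%). TMSB4X had no UMI in 17 cells, where counting error alone would leave 6.55 cells without one. Its 3 highest levels were 2.01 per 10000 in cell 27, 1.44 in cell 3 and 1.27 in cell 74. Its index of 3.36 did not pass against spike-in noise (chi-square test, Benjamini-Hochberg adjusted p = 0.146).

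The TMSB4X row is uncertain, since copies of the gene have rows of their own. TMSB4XP8 and TMSB4XP4, named as its pseudogenes, had 31 and 4 UMIs, which is 25.0% of the UMIs of these rows and TMSB4X together. TMSB4XP8 had UMIs in 17 cells, in none of them without TMSB4X, and the levels of the rows had a Spearman rho of 0.757 over 47 cells. In the first 200 bases of the TMSB4X transcript, 66 of 151 words of 50 bases occurred in GENCODE transcripts of 4 other genes, among them TMSB4XP6, TMSB4XP1 and TMSB4XP2. Over the whole TMSB4X transcript, 40 of 446 such words (8.97%) occurred in the transcript of TMSB4XP8. With the pseudogene rows added, TMSB4X made up 3.76% of the thymosin UMIs. How reads that map to several places were treated was not given in the sources used here.

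MSN was the rarest of the genes, with 35 UMIs in 17 of 47 cells. Cell 18 held 6 of these UMIs and cell 3 held 4. Counting error alone would leave 23.1 cells without a UMI, and 30 had none. Its index of 2.07 did not pass against spike-in noise (chi-square test, Benjamini-Hochberg adjusted p = 1). Its relatives in the same family of membrane linkers were more abundant: EZR (ezrin) had 217 UMIs in 42 cells and RDX (radixin) had 234 in 44. In these cells MSN was thus the least abundant of the 3 genes by summed UMIs. Of 9 membrane linkers tested 0 passed against spike-in noise in that test, and 0 did at an unadjusted p under 0.05. With 5.40% of all genes passing, a count of 0 of 9 does not set the linkers apart.

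KRT8 and KRT18 mRNAs were present in most cells at a few UMIs. Only these genes are counted in the keratin sums and shares below. KRT10, another keratin gene, is left out of them and had 327 UMIs in 47 of 47 cells. KRT18 had 223 UMIs in 41 cells and KRT8 had 125 in 38. Both were seen in 35 cells, 1 of them in 9 cells and neither in 3. KRT18 was highest in cell 10 (11 UMIs, 3.38 per 10000), cell 17 (13 UMIs, 3.10) and cell 8 (9 UMIs, 2.52). It had no UMI in 6 cells, where counting error alone would leave 1.08. Its index of 4.07 passed against spike-in noise with the plain tail and not with the matched one (chi-square test, Benjamini-Hochberg adjusted p = 0.00543 and 0.107). Of the 4321 genes with a mean from 1 to 5 UMIs, 54 had a higher index. In the cells with label numbers above 48 the index of KRT18 was 1.87 (adjusted p = 1.00, chi-square test).

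KRT8 was highest in cell 23 (6 UMIs, 2.05 per 10000), cell 10 (5 UMIs, 1.54) and cell 85 (9 UMIs, 1.53). Its index was 2.37 (chi-square test, Benjamini-Hochberg adjusted p = 1). KRT8 made up 35.9% of the UMIs of the pair (exact binomial interval 30.9% to 41.2%), so KRT18 was 1.78-fold more abundant. The pair index was 1.74, within the 0.864 to 4.25 of the 1326 pairs of spike-ins, so a ratio that varied between cells was not detectable at this depth. The keratin rows also have named pseudogenes. The 10 for KRT18 had 17 UMIs and the 7 for KRT8 had 20, at most 9 of them in 1 row, KRT8P3, and with them KRT8 made up 37.7%.

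Vimentin mRNA outnumbered the mRNAs of KRT8 and KRT18. With KRT10 added, the keratin sum was 675 UMIs, close to that of VIM. VIM had 728 UMIs against 348 for KRT8 and KRT18 together, 2.09-fold more, and it was detected in every cell. Its level ran from 0.565 per 10000 in cell 9 to 7.09 in cell 33, a 12.5-fold range, with a median of 2.37. Cell 33 had 64 VIM UMIs, and the next level was 4.95 in cell 22. The index of 4.92 passed against spike-in noise (chi-square test, Benjamini-Hochberg adjusted p = 1.14e-05, and 0.000162 with the matched tail), and 36 of 1645 genes of like abundance had a higher one. That result leaned on cell 33. Without it the index was 3.48, and the adjusted p of the chi-square test was 0.0341 with the plain tail and 0.112 with the matched one. In the cells with label numbers above 48, which do not include cell 33, the index was 2.25 (adjusted p = 1.00, chi-square test).

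Keratin made up 32.3% of the summed KRT8, KRT18 and VIM UMIs (exact binomial interval 29.6% to 35.2%), and 32.8% ± 18.8 over cells. It exceeded VIM in 9 cells and fell short of it in 38. Cell 17 was the only cell whose interval lay wholly above 50%, at 80% (16 keratin and 4 VIM UMIs, interval 56.3% to 94.3%). Cell 33 was at the other end, with 0 KRT8 or KRT18 UMIs beside its 64 of VIM, which allows a share of up to 5.60%. Its 90262 endogenous UMIs allow a summed KRT8 and KRT18 level of up to 0.332 per 10000, which is 3 counts of the total. The other cells without a KRT8 or KRT18 UMI, 2 and 86, had 4 and 8 VIM UMIs. In 7 of 47 cells the interval left out the summed share, 5 above and 2 below. The pair index was 3.36, or 2.63 without cell 33, inside the range of the spike-in pairs in both cases.

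**Figure D4:**
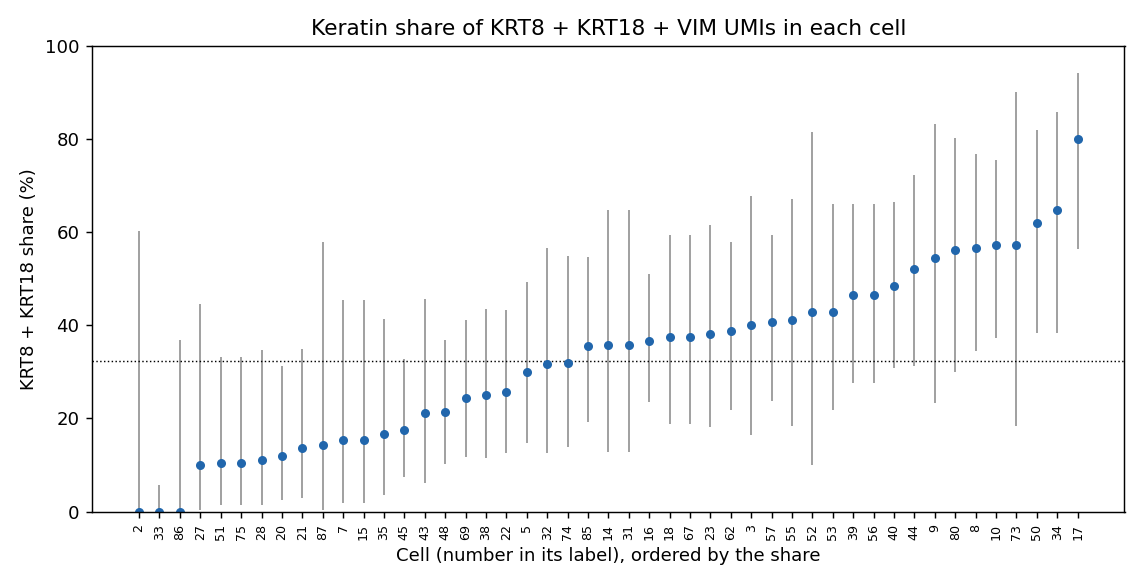
Each point is the share of KRT8 and KRT18 in the KRT8, KRT18 and VIM UMIs of 1 cell, in percent, with its exact 95% binomial interval as a grey bar. Cells are ordered by the share, the dotted line is the summed share of 32.3%, and the intervals of most cells include it.

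The summed keratin level and the VIM level had a Spearman rho of 0.148 over 47 cells, and of 0.201 when every cell was thinned to 29325 UMIs. At that depth KRT18 was seen in 35 cells and KRT8 in 29. Markers of epithelial junctions and of mesenchymal cells were both low. Of 15 junction genes, 7 had a row and held 503 UMIs, led by DSP (desmoplakin, 215) and JUP (plakoglobin, 160), which link keratin filaments to desmosomes. Of 16 mesenchymal markers, 11 had a row and held 475 UMIs, led by CDH2 (N-cadherin, 219) and SPARC (99). The summed share of the junction genes ran from 0.00473% to 0.0425% of a cell's UMIs and that of the mesenchymal genes from 0.00473% to 0.0340%. The keratin share within keratin and vimentin had a rho of 0.11 with the first and of 0.06 with the second, values that are no finding in counts this sparse. CDH1 and EPCAM have no row and are not analysed here.

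Over the 45 pairs the median Spearman rho of scaled UMIs (on the log2 scale with a pseudocount of 1) was 0.05, with a range from -0.17 to 0.39. For the 15 pairs of the 6 members with a mean of at least 5 UMIs the median was 0.10, with 5th and 95th percentiles of -0.15 and 0.35. All pairs of the 1830 genes with such a mean had a median of 0.01 and percentiles of -0.25 and 0.27. The highest values were 0.39 for ACTB with CFL1, 0.33 for ACTB with PFN1 and 0.30 for KRT18 with KRT8, the partners of a filament. ACTB and ACTG1 had a rho of 0.07, and PFN1 and CFL1 had -0.05. All values of a cell share its library and its depth, and these correlations are descriptions without a test.

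**Figure D5:**
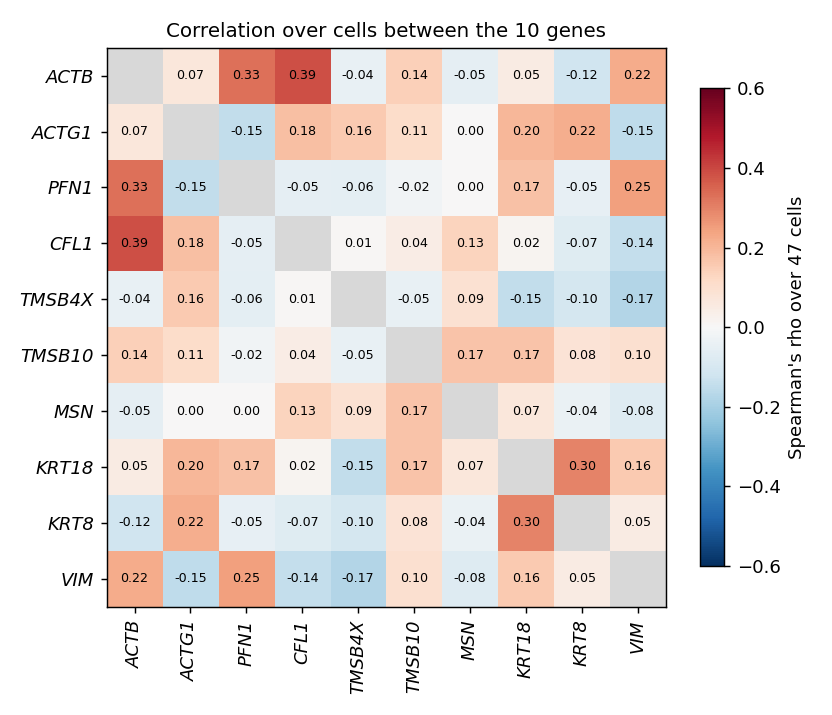
Each square gives Spearman's rho over 47 cells between the levels of 2 of the genes, from blue (negative) to red (positive), with the value printed in it. ACTB with CFL1, at 0.39, is the highest, and ACTB with ACTG1 stands at 0.07.

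Some of these values depended on the cells and the scaling. In the 30 cells with label numbers up to 48, ACTB and ACTG1 had a rho of -0.11 and in the 17 above 48 a rho of 0.49. ACTB and PFN1 had 0.11 and 0.70 in the same sets, and KRT18 and KRT8 had 0.39 and 0.07. These differences were not tested. Scaling by spike-in UMIs leaves in the differences in mRNA content between cells. On that scale ACTB and ACTG1 had a rho of 0.62, ACTB and CFL1 0.79, and PFN1 and CFL1 0.75.

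For the 6 members with a mean of at least 5 UMIs, the genes most like them over 47 cells were sought among the 1830 genes with such a mean. The search was not run for TMSB4X, MSN, KRT18 and KRT8, which have fewer UMIs. For ACTB they were TFDP1, PSMB6 and ANXA2 (rho 0.51, 0.50 and 0.50), and UBB was the most opposed (-0.54). For ACTG1 they were HEY1, NDUFA8 and NSA2 (0.47, 0.44 and 0.43), with TOMM7 the most opposed (-0.49). CFL1 was closest to MRPL22, TFDP1 and NTPCR (0.52, 0.50 and 0.49), and its lowest rho was with MT-RNR2, the large mitochondrial ribosomal RNA (-0.58). PFN1 was closest to TMEM50A, ZNRD1 and NOB1 (0.47, 0.45 and 0.43) and most opposed to GMNN (-0.42). TMSB10 was closest to TXLNA, RPL41 and PET100 (0.48, 0.45 and 0.42) and most opposed to DDX27 (-0.54). VIM was closest to NHP2, COX16 and FARSA (0.50, 0.47 and 0.43) and most opposed to EPB41L4A-AS1 (-0.51). Only TFDP1 was named for more than 1 member, and each list is the extreme of many comparisons.

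Cell cycle genes and depth were set beside the members over the same 47 cells, as a description. The share of 20 G1/S genes had its highest rho with CFL1 (0.39) and its lowest with the sum of KRT8 and KRT18 (-0.32). The share of 24 G2/M genes had its lowest rho with TMSB10 (-0.32), and for ACTB and ACTG1 it was -0.11 and -0.02. Endogenous UMIs per cell had a rho of 0.07 with ACTB, -0.16 with ACTG1, 0.31 with CFL1 and -0.23 with TMSB10. For the ACTB share of the actin pair the values were -0.04 with G1/S, -0.03 with G2/M and 0.20 with endogenous UMIs. Cell 52, which had the lowest PFN1 level, also had the highest share of mitochondrial mRNA, 12.1% against a median of 3.11%. Without it the same 5 genes passed against spike-in noise.

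Other genes of the actin machinery were read against the 5.40% of all genes that passed against spike-in noise (3.06% with the matched tail) and the 88.0% that exceeded counting error. Lists of this size with 0 genes past spike-in noise are near those shares and do not stand apart. The Arp2/3 complex, which starts branched filaments, had 9 genes tested, and 0 passed against spike-in noise with either tail, while 7 passed against counting error. ARPC3 and ARPC2 were its most abundant subunits, with 19.3 ± 11.1 and 12.4 ± 6.18 UMIs per cell, and their indices were 2.42 and 1.08. Of 13 capping and nucleation genes 0 passed, and CAPZA1, CAPZA2 and CAPZB, subunits of capping protein, had 256, 236 and 214 UMIs. Of 10 tropomyosin and non-muscle myosin genes 0 passed, and MYL6, a myosin light chain, was the most abundant with 2397 UMIs and an index of 2.69, followed by MYL12B and TPM3. Counts at an unadjusted p under 0.05 in the same chi-square test were 1 for the Arp2/3 complex, 0 for capping and nucleation, and 2 for tropomyosins and myosins.

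Among 14 monomer binding and turnover genes tested, TMSB10 passed with both tails and TMSB15A, another β-thymosin, with the plain tail only (38 UMIs in 13 cells, index 4.40, chi-square test, Benjamini-Hochberg adjusted p = 0.00579 and 0.746). DSTN, which encodes the cofilin relative destrin, had 1354 UMIs, and its index of 3.27 did not pass (chi-square test, adjusted p = 0.0518). PFN2 and CFL2, the second profilin and cofilin genes, had 484 and 184 UMIs, against 3856 for PFN1 and 2751 for CFL1. Of 11 crosslinking genes, MARCKS, which encodes an actin-binding substrate of protein kinase C, passed with the plain tail (522 UMIs, index 3.55, adjusted p = 0.0300) and not with the matched one (0.123). PLS3, which encodes a plastin that bundles filaments, had 852 UMIs and an index of 2.93. Of the other actin isoforms ACTA2 had 2 UMIs and ACTA1 had 1. KRT10 was the only other keratin with a row among 12 listed, with 327 UMIs in 47 of 47 cells and an index of 2.00.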

How the data were processed

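The authors deposited 1 table of UMI counts per gene and cell, with 47 cell columns that match the labels, and 0 columns of no sample. The submitters' processing notes name cutadapt 1.2.1, STAR 2.4.0a and the builds hg19 and GRCh37. The treatment of multi-mapping reads, of strand and of UMI errors was not given in the sources used here. cDNA was amplified for 18 PCR cycles, per the labels' protocols. A repeated header line (0.0602% of the summed values) was left out, and spike-ins were kept apart from gene totals. Genes with at least 20 UMIs were tested with the chi-square index in Python 3.11.15 (scipy 1.17.1), at a Benjamini-Hochberg adjusted p under 0.05. The test was checked on simulated data, after which the matched tail was added. It was chosen in place of a group test because the labels give 1 group of single cells. Intervals are exact (Clopper-Pearson, 95%) and cover counting error only. Doublets were not assessed. The members and gene lists were chosen with earlier results of these data known. The rule for named genes takes the members, the 3 genes with the most UMIs in each list and those past spike-in noise, the genes most and least like each member with a mean of at least 5 UMIs, and pseudogene rows of members. Not every gene it takes is named. DSTN, PFN2, CFL2, RPL28 and the actin isoform ACTA1 fall outside it and were chosen after their values were seen, and CDH1 and EPCAM are named as having no row. The result of 1 gene list is not reported here. Sequence comparisons used GENCODE 29 and RefSeq. Alternatives were TMM totals (edgeR 4.0.16), DESeq2 1.42.0 size factors, spike-in totals, other UMI minimums and subsets of cells.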

Additional observations from a re-analysis of the deposited data

How the results depend on the processing

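All 10 genes exceeded counting error in every alternative with all 10 tested. Among the 17 cells with label numbers above 48, 8 of 9 tested did, all but CFL1. The count past spike-in noise was 4 to 6 across the alternatives run, except among those 17 cells, where it was 2 (ACTB and ACTG1) and fewer cells entered. What the label numbers stand for was not given in the sources used here. Of all genes tested, 491 passed, against 1299 with spike-in totals, 278 with the matched tail and 200 among the 17 cells. Of the 3685 genes with at least 100 UMIs, 3523 (95.6%) exceeded counting error, against 8001 of 9088 (88.0%) with at least 20. In the 17 cells 3792 of 5771 genes tested did (65.7%), so there the share was lower too. KRT18 had an index of 3.16 and did not pass with spike-in totals (chi-square test, adjusted p = 0.103). With each cell left out in turn, chosen after seeing the data, the index of VIM ran from 3.48 to 5.04 and that of KRT18 from 3.65 to 4.18. The paralog shares moved by less than their SD over cells in every alternative. That bar is wide for a summed share, so passing it says little. The SD was 28.4 points for the KRT8 share of 35.9% and 3.47 for the TMSB4X share of 2.85%. For the ACTB share of 44.05% it was 6.51 points. No paired analysis was possible because the labels give 1 group. Few UMIs limit TMSB4X, MSN, KRT18 and KRT8.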

Other observations

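NEFM, which encodes a neurofilament subunit of neurons, had 9.83 ± 15.0 UMIs per cell (SD, n = 47), an index of 21.3 and UMIs in 42 cells (chi-square test against spike-in noise, Benjamini-Hochberg adjusted p = 1.86e-70). NEFL, another neurofilament subunit, had 112 UMIs in 30 cells and an index of 5.54 (adjusted p = 3.79e-06, and 0.0221 with the matched tail, chi-square test). With VIM, 3 of 6 intermediate filament genes other than keratins passed with both tails, where 5.40% of all genes passed with the plain tail and 3.06% with the matched one. Among genes with a mean from 5 to 50 UMIs per cell, as NEFM and VIM have, the shares were 11.6% and 7.90%. The list was chosen with earlier results of these data known, so its count of 3 of 6 is no independent support. Without cell 33 VIM did not pass with the matched tail (chi-square test, adjusted p = 0.112).

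Of 8 tested targets of serum response factor and its actin-sensing cofactors, 2 passed with the plain tail, TAGLN2 (transgelin 2) and SRF itself. Of all genes 5.40% did. With the matched tail only TAGLN2 passed, 1 of 8 against 3.06% of all genes. At a mean from 5 to 50 UMIs, as TAGLN2 has, 11.6% and 7.90% of genes passed with these tails. From 1 to 5, as SRF has, 2.38% and 0.486% did. TAGLN2 had 18.9 ± 13.3 UMIs per cell (SD, n = 47) and an index of 3.90 (chi-square test, Benjamini-Hochberg adjusted p = 0.00363, and 0.0144 with the matched tail). SRF had 207 UMIs and an index of 3.97 (adjusted p = 0.00953, and 0.158 with the matched tail, chi-square test). CNN3, which encodes calponin 3, had 364 UMIs and an index of 1.34. Of the cell cycle lists, 1 of 19 G1/S genes (PCNA) passed with either tail, a share near that of all genes. Of 24 G2/M genes 10 passed with the plain tail and 7 with the matched one, against 5.40% and 3.06% of all genes. Among genes with a mean from 5 to 50 UMIs per cell, these shares were 11.6% and 7.90%. These lists, too, were chosen with earlier results of these data known.

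Cell 3 was the highest cell for ACTG1 and among the 4 highest for ACTB, TMSB10, TMSB4X and MSN, and it had the highest G1/S share, 0.420% against a median of 0.227%. Over 47 cells the G1/S share had a rho of 0.14 with ACTG1, 0.09 with ACTB and 0.27 with MSN. With TMSB10 it was 0.0008 and with TMSB4X 0.008, and no relation was tested. Cell 16 was the lowest for ACTB and among the 4 highest for ACTG1, VIM and KRT8. These cells were chosen after their values were seen.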
